A study of Mus musculus with 35 samples.

Results

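Serine synthesis and the folate-bound one-carbon cycle were described through 8 enzyme genes, taken from a fixed list of names and matched to the Ensembl identifiers of the count tables. They are Phgdh, Psat1 and Psph, which make serine, Shmt1 and Shmt2, which split it, and Mthfd1, Mthfd1l and Mthfd2, which carry the released carbon onwards. They are 8 of 48709 genes in the tables, and 8 of 8 passed the filter on low counts that left 13819 genes for testing. The libraries came from OT-I CTLs, cytotoxic CD8+ T cells of mice whose T cells carry a transgenic receptor for an ovalbumin peptide. Splenic CD8+ T cells had been primed through CD3 and CD28 and then expanded in murine IL-2, so every group, the start included, had grown in IL-2 beforehand. A first group held cells of time 0 h, with no treatment. The other 6 had been cultured for 24 h in medium of pH 7.4, of pH 7 or of pH 6.6, in each case both without added cytokine and with IL-2 at 200 IU/mL, the medium being acidified with hydrochloric acid. Each of the 7 groups held 5 biological replicates, numbered 1 to 5, which gives 35 libraries. The study asks how the acidity found in tumors changes the answer of CTLs to IL-2.

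Serine is built from a glycolytic intermediate in 3 steps. Phgdh oxidises phosphoglycerate, Psat1 adds an amino group taken from glutamate, and Psph removes the phosphate. Serine hydroxymethyltransferase, Shmt2 in mitochondria and Shmt1 in the cytosol, then turns serine into glycine and loads its side-chain carbon onto folate. In mitochondria Mthfd2 oxidises that carbon and Mthfd1l releases it as formate, while Mthfd1 combines the matching reactions in a single cytosolic protein. The carbon is used to make purines and thymidylate, and T cells are known to raise this pathway when they are activated and divide. Most of the study's pH experiments used a low-glucose DMEM with serum and added non-essential amino acids, a class to which serine and glycine belong. The paper's methods do not name the medium of the sequenced cultures.

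The total count on genes was 16721319 to 34033340 per library (median 24730020). The cells carried the markers of CD8+ T cells, with Cd8a at 674 to 1596 CPM, the reads of a gene scaled to the size of its library, and Cd3e at 374 to 631 CPM, while Cd4 stayed at or below 2.48 CPM. Summed markers of B cells, myeloid cells, erythroid cells and fibroblasts reached at most 6.10, 3.99, 0.274 and 0.470 CPM, and Ms4a1, Pax5, C1qa and Hbb-bs had no read in any library. The NK cell list reached 705 CPM through Eomes and Klrb1c, whereas Ncr1 stayed at or below 0.0694 CPM. Sums of CD8 T cell and of NK cell markers moved with the groups, from 10250 to 13030 and 596 to 705 CPM at pH 7.4 with IL-2 to 3815 to 5220 and 181 to 257 CPM at pH 6.6 with IL-2, and their part in the enzyme levels was not tested. In acid with IL-2, 2 of the 9 genes of the CD8 T cell list fell, 3 rose and 4 did not pass (median log2 fold change -0.020). The 2 that fell, named after their values were seen, were the granule genes Gzmb (-3.27 ± 0.18, SE) and Prf1 (-2.01 ± 0.17), and Gzmb alone spanned 36.7 to 9010 CPM over the libraries. Both tested genes of the NK cell list, Eomes and Klrb1c, fell. In bulk libraries, fewer cells that express a gene and less of its RNA per cell cannot be told apart. Phgdh is the member whose level is least certain. Of its 50-base windows 52.2% were unique, 23 other genes shared some of the rest, and multiply aligned reads did not enter the gene counts. The 18 of these genes that the tables hold had 0 to 21 counts in all per library, against 489 to 4156 for Phgdh, and the level of Phgdh may be too low. Of the exon bases of Psph 10.4% lie opposite Cct6a, and of those of Shmt1 4.74% lie opposite Smcr8. The libraries were stranded, but the strand setting of the counting is not given in the sources used here, so reads of these stretches are uncertain.

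The promoters of 4 members are shown as examples that hold matches to motifs of general and growth-linked factors. Psph, Mthfd1 and Mthfd2, which are not printed, hold CCAAT as well. Whether these motifs have a part in the enzyme levels was not tested. The sequences are those of RefSeq on GRCm38.p6, in windows of 300 bases around the start of transcription, and a promoter was found for 8 of 8 members. Capitals mark matches on either strand to CCAAT (the letters bound by NF-Y), to TTGGCGC (an E2F site) or to the palindromic NRF1 motif, whose 10 letters are those in capitals in the Shmt2 promoter. The letters CACGTG, an E-box of the kind bound by Myc, and TGATGNAA, an ATF4 element, were searched as well. The motifs were picked with general knowledge of the pathway and with the sequences in view. The reverse complement of CCAAT is ATTGG, so a CCAAT match can overlap a TTGGCGC match by 4 letters, which none of those printed did.
Phgdh (chr3:98339920-98340219, minus strand): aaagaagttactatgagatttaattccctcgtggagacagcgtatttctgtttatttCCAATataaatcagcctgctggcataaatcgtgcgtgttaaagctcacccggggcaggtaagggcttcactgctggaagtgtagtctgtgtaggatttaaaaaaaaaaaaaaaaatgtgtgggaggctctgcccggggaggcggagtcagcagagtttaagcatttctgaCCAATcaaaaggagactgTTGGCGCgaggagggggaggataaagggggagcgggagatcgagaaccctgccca
Psat1 (chr19:15925010-15925309, minus strand): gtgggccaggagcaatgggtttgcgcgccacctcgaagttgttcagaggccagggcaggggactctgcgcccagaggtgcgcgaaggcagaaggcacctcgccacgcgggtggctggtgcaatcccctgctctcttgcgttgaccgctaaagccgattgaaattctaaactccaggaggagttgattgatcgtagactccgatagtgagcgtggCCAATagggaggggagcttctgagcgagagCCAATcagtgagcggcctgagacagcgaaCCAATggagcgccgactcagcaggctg
Shmt1 (chr11:60811216-60811515, minus strand): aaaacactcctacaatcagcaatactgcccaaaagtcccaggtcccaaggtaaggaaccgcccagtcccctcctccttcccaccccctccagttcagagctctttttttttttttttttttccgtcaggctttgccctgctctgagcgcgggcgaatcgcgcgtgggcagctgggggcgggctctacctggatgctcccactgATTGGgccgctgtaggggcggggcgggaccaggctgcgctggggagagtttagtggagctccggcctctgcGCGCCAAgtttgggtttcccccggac
Shmt2 (chr10:127522395-127522694, minus strand): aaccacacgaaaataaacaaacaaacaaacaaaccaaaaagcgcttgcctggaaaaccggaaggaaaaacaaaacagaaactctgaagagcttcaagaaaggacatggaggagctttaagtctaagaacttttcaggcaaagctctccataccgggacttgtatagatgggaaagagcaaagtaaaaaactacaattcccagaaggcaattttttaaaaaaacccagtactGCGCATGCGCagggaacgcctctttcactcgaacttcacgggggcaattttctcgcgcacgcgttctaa

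The Phgdh gene (ENSMUSG00000053398) spans chr3:98313170-98339990 and its promoter holds CCAAT at positions -193 and -23 and TTGGCGC at -5, counted from the first transcribed base as 0 to the first printed base of the match. Psat1 (ENSMUSG00000024640, chr19:15904678-15947337) has CCAAT at -36, -6 and 23, and its RefSeq start lies inside the longer GENCODE span. The windows of Shmt1 and Mthfd2 also lie wholly inside their GENCODE spans. A further RefSeq start of Psat1, with its window at chr19:15924573-15924872, held none of the motifs. The promoter of Shmt1 (ENSMUSG00000020534, chr11:60788104-60811718) carries CCAAT at -47 and TTGGCGC at 24, both on the opposite strand. That of Shmt2 (ENSMUSG00000025403, chr10:127517123-127522444) has the NRF1 letters at -19 and no CCAAT. Among the others, Psph (ENSMUSG00000029446, chr5:129765558-129787449), Mthfd1 (ENSMUSG00000021048, chr12:76255298-76319803) and Mthfd2 (ENSMUSG00000005667, chr6:83305691-83325908) hold CCAAT, and Mthfd1l (ENSMUSG00000040675, chr10:3973118-4167081) holds none of the motifs. CCAAT was thus found in 6 of 8 members and in 37.4% of 32851 mouse promoters of the same length, TTGGCGC in 2 members and 2.45% of promoters, and the NRF1 motif in 1 member and 0.971%. CACGTG and TGATGNAA, present in 7.15% and 3.97% of promoters, were found in 0 members. A member was counted if any of its starts held a match, over 9 windows for the 8 members, while the shares are of single promoters. A match describes the letters of these windows only, and gene coordinates are those of GENCODE M21 (GRCm38).

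Relative to the other genes of a library, all 8 enzyme genes were lower in acid in CTLs given IL-2. Levels here are shares of a library after scaling, and they do not give the amount of RNA per cell. At pH 6.6, 8 of 8 were lower than at neutral pH, where 76.3% of all genes tested were called in either direction and 40.9% were called lower (35.4% higher). Their median log2 fold change was -2.23, against -0.067 for all genes tested. The largest fall was that of Shmt1, to a level 16.8-fold lower, and the smallest that of Psph, 2.18-fold. In every member the 5 libraries at pH 6.6 lay below the 5 at pH 7.4 without overlap, and 5 of 5 replicate numbers moved the same way. The values follow, in the order of replicates 1 to 5, with adjusted p-values from edgeR's quasi-likelihood test over all genes and log2 fold changes given ± SE.

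**Figure D1:**
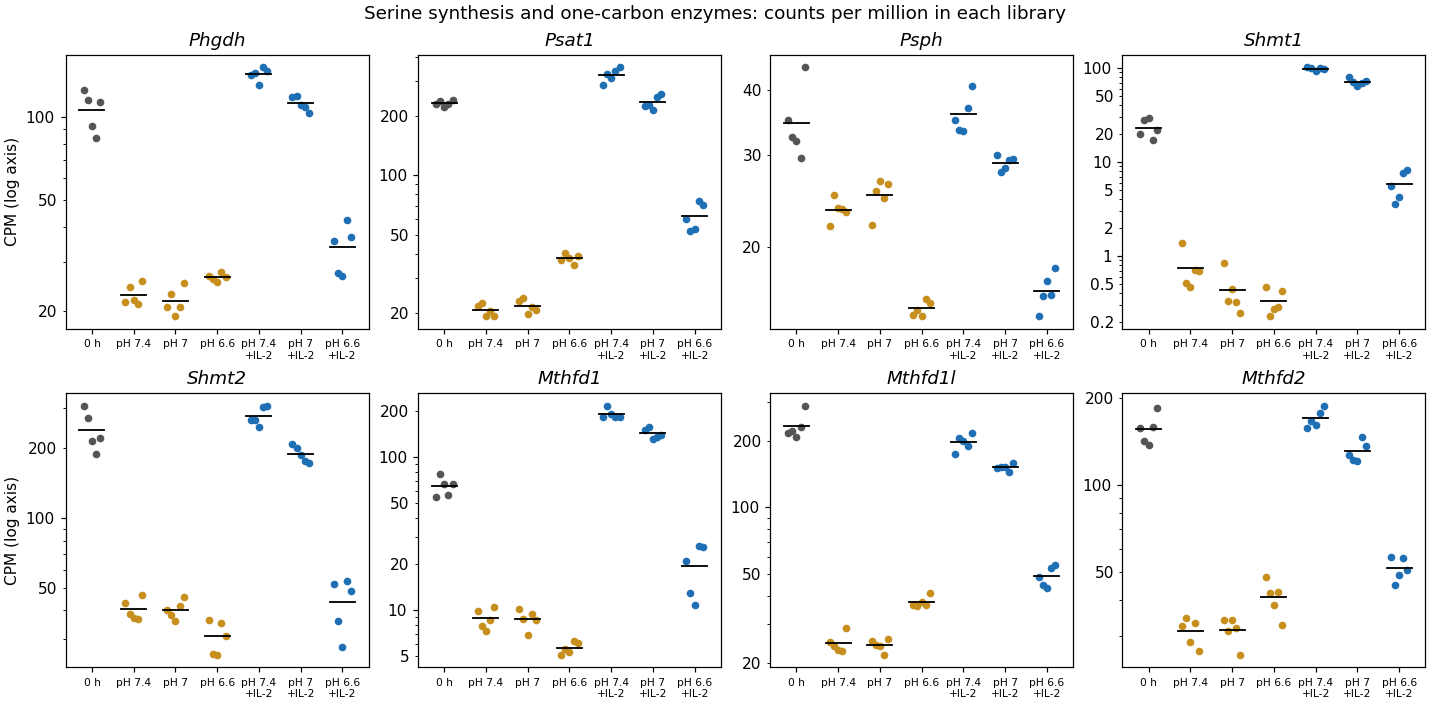
Level in CPM of each enzyme gene on a logarithmic axis in the 35 libraries, by group, with points for libraries (replicates 1 to 5 from left to right) and a bar for the mean of 5. Grey marks 0 h, orange cultures without IL-2 and blue cultures with IL-2. In all 8 panels the points at pH 6.6 with IL-2 lie below those at pH 7.4 and pH 7 with IL-2, and the 15 libraries without IL-2 lie at or below 1.39 CPM for Shmt1.

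Among the enzymes of serine synthesis, Phgdh, which commits carbon to the route, was at 141, 144, 131, 151 and 146 CPM at pH 7.4 with IL-2. At pH 6.6 its libraries stood at 35.6, 27.4, 26.8, 42.6 and 36.9 CPM. Every acid library thus lay far below every neutral one. The mean went from 143 ± 7.53 to 33.8 ± 6.72 CPM (SD, n = 5), a log2 fold change of -2.08 ± 0.10 (adjusted p = 1.34e-18). Psat1, the aminotransferase that follows it, measured 288, 326, 313, 339 and 353 CPM at neutral pH and 60.4, 51.9, 53.4, 74.1 and 70.7 CPM in acid. Its fall of 5.22-fold (log2 -2.38 ± 0.079, adjusted p = 5.33e-22) was the largest of these 3 genes. Psph, the phosphatase of the last step, had 35, 33.6, 33.4, 36.95 and 40.7 CPM at pH 7.4 and 14.7, 16.1, 17.2, 16.2 and 18.2 CPM at pH 6.6. It changed least, by -1.12 ± 0.077 on the log2 scale (adjusted p = 1.07e-14), and its 95% confidence interval of -1.28 to -0.97 does not overlap that of any other member.

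Shmt1, the cytosolic hydroxymethyltransferase, showed the deepest fall of the set. It stood at 102, 99.4, 93.1, 99.3 and 98.2 CPM at pH 7.4 with IL-2 and at 5.55, 3.60, 4.28, 7.65 and 8.33 CPM at pH 6.6, which rests on 96, 90, 102, 186 and 200 reads. The change was -4.07 ± 0.19 on the log2 scale (adjusted p = 7.65e-19), with an interval of -4.45 to -3.69. Shmt2, its mitochondrial counterpart, was counted at 264, 266, 247, 302 and 305 CPM in neutral and 52, 36.1, 27.9, 53.4 and 48.4 CPM in acid medium. It fell by 6.45-fold (log2 -2.69 ± 0.12, adjusted p = 3.34e-19), a smaller change than that of Shmt1.

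Mthfd1, the cytosolic enzyme with 3 activities, had 184, 216, 192, 183 and 181.7 CPM at pH 7.4 with IL-2 and 20.9, 12.99, 10.8, 26.2 and 25.8 CPM at pH 6.6. The acid libraries varied more than the neutral ones, and the log2 fold change was -3.33 ± 0.15 (adjusted p = 7.58e-19). Mthfd1l, the mitochondrial formate-releasing enzyme, measured 173, 205, 199, 189 and 216 CPM at neutral pH and 48.4, 44.5, 43.2, 53.3 and 55.1 CPM in acid, a fall of 4.02-fold (log2 -2.01 ± 0.067, adjusted p = 5.33e-22). Mthfd2, the mitochondrial dehydrogenase that is abundant in dividing and embryonic cells, was at 157, 166, 161, 177 and 187 CPM and at 56.5, 45.1, 48.7, 55.8 and 50.7 CPM. Its fall was 3.32-fold (log2 -1.73 ± 0.093, adjusted p = 2.13e-17). Within the acid group with IL-2, replicates 2 and 3 were the lowest for 7 of 8 members, the exception being Psph. All 8 calls held when any replicate number was left out.

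Mild acidity had a weaker effect of the same direction. When IL-2 was present, 8 of 8 members were lower at pH 7 than at pH 7.4, where 19% of all genes were called, 9.15% higher and 9.83% lower. Their log2 fold changes lay between -0.30 and -0.55, with a median of -0.41 against -0.0054 for all genes, and no library at pH 7 reached the lowest library at pH 7.4 in any of the 8. Shmt2 changed most, from the values above to 209, 200, 188, 176 and 174 CPM (log2 -0.55 ± 0.11, adjusted p = 9.23e-04). Psat1 fell to 225, 227, 216, 248 and 258 CPM (log2 -0.46 ± 0.075, adjusted p = 5.48e-05) and Phgdh to 118, 119, 109.9, 108 and 103 CPM (log2 -0.35 ± 0.094, adjusted p = 0.00844). Psph, Mthfd1l and Mthfd2 changed by -0.30 ± 0.075, -0.37 ± 0.064 and -0.38 ± 0.089 on the log2 scale. Mthfd1 (-0.43 ± 0.14, adjusted p = 0.0269) and Shmt1 (-0.47 ± 0.16, adjusted p = 0.0345) were nearest to the threshold. Both lost the call with a looser filter, without the replicate block and without any one of replicates 2, 3, 4 or 5, and Shmt1 also lost it with DESeq2. The further step from pH 7 to pH 6.6 with IL-2 lowered 8 of 8 members (72.4% of all genes called, 32.5% higher and 40.0% lower), with log2 fold changes from -0.82 for Psph to -3.60 for Shmt1, so the larger part of each fall lay in that step.

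Without IL-2 the members no longer moved together. From pH 7.4 to pH 6.6, 3 of 8 rose and 4 fell, against 67.0% of all genes called in either direction (31.6% higher and 35.4% lower), and their median log2 fold change was -0.092 against -0.034 for all genes. Psat1 rose from 21.8, 22.4, 19.4, 20.6 and 19.3 CPM at pH 7.4 to 37.4, 40.6, 38.1, 35.2 and 38.99 CPM at pH 6.6 (log2 0.88 ± 0.079, adjusted p = 2.89e-11). The mitochondrial enzymes Mthfd1l, from 24.5 ± 2.46 to 37.5 ± 2.02 CPM (SD, n = 5; log2 0.62 ± 0.067, adjusted p = 1.49e-09), and Mthfd2, from 31.1 ± 3.35 to 40.8 ± 5.68 CPM (SD, n = 5; log2 0.39 ± 0.092, adjusted p = 4.67e-04), rose as well. The groups were apart for Psat1 and Mthfd1l and overlapped for Mthfd2.

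The other members fell or did not pass the test. Psph went from 21.9, 25.2, 23.8, 23.7 and 23.3 to 14.8, 15.1, 14.8, 15.9 and 15.6 CPM (log2 -0.63 ± 0.077, adjusted p = 1.76e-08) and the cytosolic Mthfd1 from 9.86, 7.89, 7.28, 8.64 and 10.4 to 5.09, 5.52, 5.27, 6.22 and 6.06 CPM (log2 -0.65 ± 0.17, adjusted p = 0.00104), both without overlap. Shmt2 fell, with a change of -0.40 ± 0.12 on the log2 scale (adjusted p = 0.00378), its highest acid library at 36.3 CPM lying just under its lowest neutral one at 36.6 CPM. Shmt1 was close to absent without IL-2, with 43, 13, 11, 17 and 16 reads at pH 7.4 and 11, 7, 6, 7 and 9 reads at pH 6.6. Its log2 fold change of -1.22 ± 0.40 (adjusted p = 0.00885) became -1.01 with an adjusted p of 0.0525 when replicate 1, which held the 43 reads, was left out. Phgdh measured 21.5, 24.3, 21.9, 21.1 and 25.5 CPM at pH 7.4 and 26.6, 26.1, 25.4, 27.6 and 26.4 CPM at pH 6.6 (log2 0.21 ± 0.10, adjusted p = 0.0587). It passed the threshold with RLE normalization (log2 0.25, adjusted p = 0.0214), with DESeq2, with a fit of these groups alone and without replicate 5.

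Between pH 7 and pH 7.4 without IL-2, 0 of 8 members passed edgeR's test, where 1.68% of all genes did (1.36% higher and 0.318% lower). The count at an unadjusted p under 0.05 was 1, namely Shmt1, whose log2 fold change was -0.83 ± 0.37 (edgeR, adjusted p = 0.506), and DESeq2 called 0 after adjustment. The intervals of the other 7 lay within -0.34 and 0.31 on the log2 scale. From pH 7 to pH 6.6 without IL-2, 4 members rose (Phgdh, Psat1, Mthfd1l and Mthfd2) and 3 fell (Psph, Shmt2 and Mthfd1), where 66.6% of all genes were called, 30.9% higher and 35.7% lower. Psat1 had the largest rise, 0.80 ± 0.079, and Psph the largest fall, -0.72 ± 0.077, on the log2 scale. The rise of Phgdh, 0.29 ± 0.10, lost its call without replicate 1 (adjusted p = 0.0605).

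**Figure D2:**
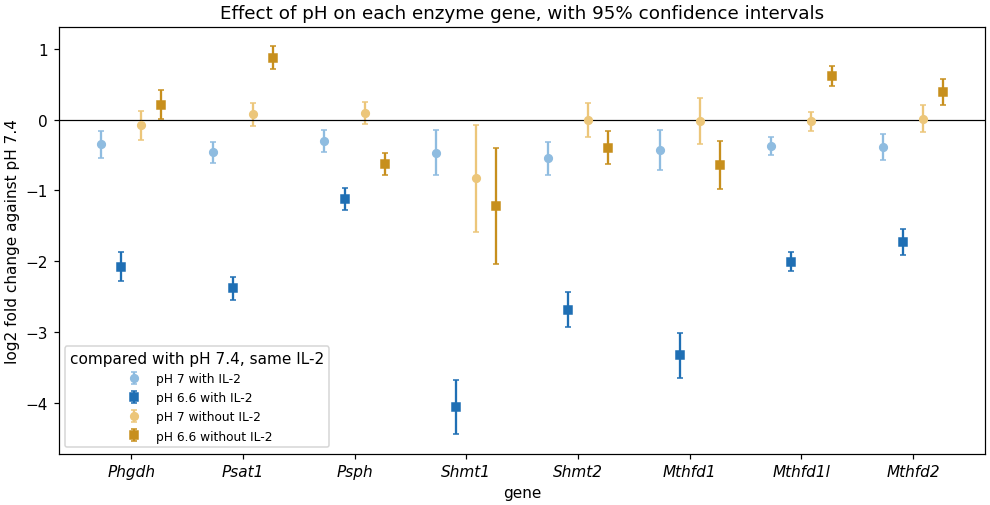
Log2 fold change of each enzyme gene at pH 7 (circles) and pH 6.6 (squares) against pH 7.4, with IL-2 (blue) and without it (orange), and 95% confidence intervals from edgeR. The dark blue squares lie between -1.12 and -4.07, while the dark orange squares spread from -1.22 for Shmt1 to 0.88 for Psat1.

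Whether the effect of acid differed between cultures with and without IL-2 was tested directly, and it did for each member. The log2 fold change from pH 7.4 to pH 6.6 was more negative with IL-2 than without it in 8 of 8 members, where 67.0% of all genes passed this interaction test, 34.3% with a positive and 32.8% with a negative difference. The difference was largest for Psat1, -3.26 ± 0.11 (adjusted p = 3.06e-21), which rose in acid in one setting and fell in the other. The difference was -2.85 ± 0.51 for Shmt1, -2.69 ± 0.22 for Mthfd1 and -2.62 ± 0.094 for Mthfd1l. That of Shmt1 rests on 6 to 43 reads per library without IL-2, and its interval of -3.89 to -1.81 leaves its place in this order uncertain. Shmt2, Phgdh and Mthfd2 came to -2.29 ± 0.17, -2.29 ± 0.14 and -2.12 ± 0.13. Psph, which fell in acid in both settings, differed least, by -0.49 ± 0.11 (adjusted p = 1.82e-04). For pH 7, 4 members passed the same test, where 4.79% of all genes did (2.19% positive and 2.60% negative). These were Psat1 (-0.54 ± 0.11, adjusted p = 0.00434), Shmt2 (-0.54 ± 0.16, adjusted p = 0.0462), Psph (-0.39 ± 0.11, adjusted p = 0.0266) and Mthfd1l (-0.35 ± 0.093, adjusted p = 0.0257). That count fell to 1 with a looser filter or without the replicate block, to 1 without replicate 2 or 4, to 2 without replicate 5 and to 0 without replicate 3, and it rose to 6 when only the groups compared were fitted and to 5 with DESeq2.

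Read as the response to IL-2, the same libraries showed all 8 genes higher with the cytokine at neutral pH. At pH 7.4, 8 of 8 were higher with IL-2 than without it, where 80.4% of all genes were called, 39.3% higher and 41.1% lower, and the median log2 fold change was 2.89 against -0.042 for all genes. All cells had been expanded in IL-2, so cultures without it had been withdrawn from the cytokine for 24 h. Shmt1, at 11 to 43 reads per library without IL-2 and 2174 to 2863 reads with it, differed 127-fold (log2 6.99 ± 0.23, adjusted p = 9.45e-23). Mthfd1 was 21.8-fold and Psat1 15.6-fold higher, and Mthfd1l, Shmt2, Phgdh and Mthfd2 were between 5.46-fold and 8.03-fold higher. Psph differed by 1.52-fold (log2 0.60 ± 0.075, adjusted p = 9.67e-09). These differences join any loss after withdrawal to any gain with IL-2. Against the start, Shmt1 at pH 7.4 changed by -4.92 ± 0.23 without IL-2 and 2.07 ± 0.17 with it. For Mthfd1l the values were -3.25 ± 0.071 and -0.24 ± 0.064. The response at pH 7 also took in 8 of 8 members (77.2% of all genes called, 37.6% higher and 39.5% lower), with log2 fold changes of 0.21 for Psph to 7.35 for Shmt1. The call of Psph there was lost without replicate 1 (log2 0.083, adjusted p = 0.375) and without replicate 2.

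At pH 6.6 a smaller response to IL-2 remained in 7 of 8 members, where 23.7% of all genes were called, 13.2% higher and 10.6% lower. Shmt1 was still 17.6-fold higher with IL-2 (log2 4.14 ± 0.30, adjusted p = 3.54e-12) and Mthfd1 3.38-fold (log2 1.76 ± 0.16, adjusted p = 7.16e-10). Psat1 was higher by 0.70 ± 0.078 and Shmt2 by 0.49 ± 0.12 on the log2 scale. Mthfd1l (0.38 ± 0.066), Phgdh (0.35 ± 0.10) and Mthfd2 (0.33 ± 0.092) showed less, and the call of Mthfd2 was lost without replicate 4 (adjusted p = 0.0555). Libraries with and without IL-2 at pH 6.6 were apart for Psat1, Shmt1, Mthfd1 and Mthfd1l and overlapped for the other members. Psph did not pass (log2 0.11 ± 0.078, adjusted p = 0.326, interval -0.049 to 0.27).

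Cells kept at pH 6.6 with IL-2 were also set beside cells kept at pH 7.4 without it. In that comparison 6 members were higher and Psph was lower, where 64.4% of all genes were called (30.4% higher and 34.1% lower). Shmt1 was higher by 2.92 ± 0.25, Psat1 by 1.58 ± 0.080, Mthfd1 by 1.11 ± 0.15 and Mthfd1l by 1.00 ± 0.067 on the log2 scale. Mthfd2 and Phgdh were higher by 0.72 ± 0.093 and 0.56 ± 0.10. Psph was lower (-0.52 ± 0.077), and Shmt2 did not pass the test (0.090 ± 0.12, interval -0.15 to 0.33).

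Relative to the start of the experiment, the cytosolic folate enzymes Shmt1 and Mthfd1 were higher after a day at pH 7.4 with IL-2, while Mthfd1l was lower. At 0 h Shmt1 stood at 19.8, 28.02, 29.2, 17.3 and 21.9 CPM, and after 24 h at pH 7.4 with IL-2 it was 4.20-fold higher (log2 2.07 ± 0.17, adjusted p = 2.90e-12). Mthfd1, at 54.7, 77.3, 66.8, 56.8 and 66.3 CPM at 0 h, was 2.97-fold higher (log2 1.57 ± 0.14, adjusted p = 3.50e-11). Psat1 and Phgdh rose by 0.48 ± 0.075 and 0.44 ± 0.094. Of the mitochondrial enzymes, Shmt2 (0.21 ± 0.11) and Mthfd2 (0.13 ± 0.089) did not pass, although Mthfd2 did without replicate 5 (adjusted p = 0.0492), and Mthfd1l fell by 0.24 (± 0.064, adjusted p = 0.00171). Psph did not pass (0.054 ± 0.075). In this comparison 59.9% of all genes were called, 29% higher and 30.9% lower, and the start libraries were used in each of the comparisons with 0 h.

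After 24 h at pH 7 with IL-2, Shmt1 (1.60 ± 0.16) and Mthfd1 (1.14 ± 0.14) were still above the start, Phgdh and Psat1 did not pass, and Psph, Shmt2, Mthfd1l and Mthfd2 were lower, with log2 fold changes of -0.25 to -0.61 (54.3% of all genes called, 26.6% higher and 27.7% lower). The call of Psph was lost with a looser filter, with a fit of these groups alone and without replicate 5, and that of Shmt2 without replicate 1. At pH 6.6 with IL-2, 8 of 8 members were below the start (68.5% of all genes called, 30.5% higher and 38.0% lower), with log2 fold changes from -1.07 for Psph to -2.48 for Shmt2. Without IL-2, 8 of 8 were below the start at each pH, where 75.2%, 75.4% and 75.1% of all genes were called at pH 7.4, pH 7 and pH 6.6 (38.3%, 37.9% and 40.3% lower, and 36.9%, 37.5% and 34.8% higher). At pH 7.4 those log2 fold changes ran from -0.55 for Psph to -4.92 for Shmt1, with Psat1 at -3.49 and Mthfd1l at -3.25.

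Put in order of mean level over the 7 groups, pH 7.4 with IL-2 was the highest group for 7 members and the start was the highest for Mthfd1l. Of the 48 pairs of neighbours in these orders 31 passed the test. The orders were set by the same libraries, so that count describes them and is no separate evidence. The neighbours that did not pass included, for 8 of 8 members, pH 7.4 and pH 7 without IL-2. They also included pH 7 with IL-2 and the start for Phgdh and Psat1, and the start and pH 7.4 with IL-2 for Psph, Shmt2 and Mthfd2. At the low end the neighbours pH 6.6 and pH 7.4 without IL-2 for Phgdh, pH 7 and pH 6.6 without IL-2 for Shmt1, pH 6.6 with and without IL-2 for Psph, and pH 6.6 with IL-2 and pH 7.4 without it for Shmt2 did not pass.

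Levels of different genes were compared per length, as RPKM, the reads scaled to library size and to annotated exon length. At pH 7.4 with IL-2, Shmt2 had the highest counted level of the 8, 89.1 ± 8.23 RPKM (SD, n = 5), followed by Psat1 at 76.1 ± 5.83 and Phgdh at 57.4 ± 3.03 RPKM. The place of Phgdh in this order, and in that at pH 6.6, is uncertain, since 52.2% of its windows were unique against 98.8% of those of Shmt2 and multiply aligned reads were not counted. Mthfd2 (48.7 ± 3.56), Mthfd1l (44.3 ± 3.65) and Mthfd1 (43.1 ± 3.29 RPKM) were close to each other, and Shmt1 (25.3 ± 0.819) and Psph (8.30 ± 0.698 RPKM) were lowest. At pH 6.6 with IL-2, Mthfd2, Psat1, Shmt2, Phgdh and Mthfd1l all lay between 11.03 ± 1.18 and 14.7 ± 1.38 RPKM on average. Mthfd1 was then at 4.35 ± 1.61, Psph at 3.81 ± 0.300 and Shmt1 at 1.51 ± 0.531 RPKM.

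The balance between compartments was followed as the log2 ratio of read counts within a library, a quantity that does not depend on library size. Its level depends on gene length, so only differences between groups are read here. The ratio of Shmt2 to Shmt1 was 1.38, 1.42, 1.41, 1.61 and 1.64 at pH 7.4 with IL-2 and 3.22, 3.32, 2.70, 2.80 and 2.53 at pH 6.6 with IL-2, which is higher by 1.43. For Mthfd2 to Mthfd1 it was -0.23, -0.38, -0.25, -0.044 and 0.044 and 1.44, 1.79, 2.17, 1.09 and 0.97, higher by 1.67. Mthfd1l to Mthfd1 went from a mean of 0.037 ± 0.13 to 1.42 ± 0.44 (SD, n = 5), higher by 1.38. In all of these the acid libraries lay above the neutral ones without overlap, so the cytosolic gene fell further than its mitochondrial counterpart.

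Acid without IL-2 moved the ratios in the same direction, by 0.66 for Shmt2 to Shmt1, 1.02 for Mthfd2 to Mthfd1 and 1.25 for Mthfd1l to Mthfd1. Cultures with IL-2 differed from those without it in the other direction, at pH 7.4 by -4.33, -1.996 and -1.44. At pH 6.6 they differed by -3.56, -1.35 and -1.31, in the same order of ratios. Of these 12 comparisons, 11 gave an exact two-sided permutation p of 0.00794 (Benjamini-Hochberg adjusted over the 12, 0.00866), the smallest p that 5 against 5 libraries allow. With libraries paired by replicate number, an exact sign-flip test gave p = 0.0625 for each of the 12, the smallest that 5 pairs allow, so none could pass in that test. The remaining one, Shmt2 to Shmt1 in acid without IL-2, had an exact p of 0.0397, rests on 6 to 43 reads of Shmt1 per library and did not pass when any one replicate was left out (adjusted p 0.0571 to 0.143).

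**Figure D3:**
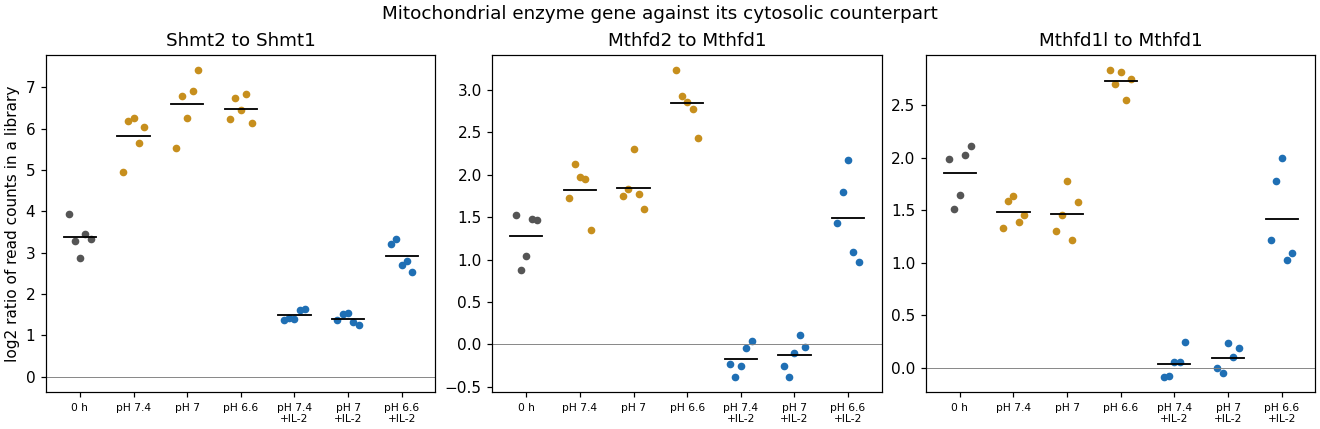
Log2 ratio of the read counts of Shmt2 to Shmt1, Mthfd2 to Mthfd1 and Mthfd1l to Mthfd1 in each library, by group, with points for libraries and a bar for the mean of 5. Cultures with IL-2 at pH 7.4 and pH 7 form the lowest groups in each panel, and the libraries at pH 6.6 with IL-2 lie above them.

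Other genes of serine, folate and methionine use were taken from lists of 48 genes, of which 39 were tested. In acid with IL-2, 24 of the 39 fell and 12 rose, with a median log2 fold change of -0.96, where 40.9% of all genes fell and 35.4% rose with a median of -0.067. Of the other folate cycle enzymes, 6 of 11 fell and 3 rose, and of the carriers of folate and mitochondrial serine 5 of 7 fell and 2 rose. Thymidylate synthase, Tyms, fell by 10.5-fold (log2 -3.39 ± 0.15, adjusted p = 2.08e-19). The reduced folate carrier Slc19a1 (-2.43 ± 0.16), the mitochondrial folate carrier Slc25a32 (-1.84 ± 0.13) and the mitochondrial serine carrier Sfxn1 (-1.68 ± 0.075) fell as well. So did Gart (-2.52 ± 0.12) and Atic (-2.44 ± 0.11), which place formyl groups into purines and make up a list of 2 genes, and Gcsh (-2.27 ± 0.11), a subunit of the glycine cleavage system. Of 9 genes of the methionine cycle and transsulfuration 5 fell and 4 rose, with the methionine adenosyltransferase Mat2a at -1.39 ± 0.15 and the hydrolase Ahcy at -1.42 ± 0.090. Glycine cleavage and serine or glycine breakdown gave 2 lower and 2 higher of 5, and serine and glycine carriers of the plasma membrane 4 lower and 1 higher of 5.

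In acid without IL-2, 10 of these 39 rose and 16 fell, with a median of -0.031, where 31.6% of all genes rose and 35.4% fell with a median of -0.034. Tyms fell by 0.52 (± 0.16). Slc19a1 (-0.71 ± 0.18), Slc25a32 (-0.76 ± 0.14), Gart (-0.77 ± 0.12) and Atic (-0.75 ± 0.11) fell, Gcsh (0.32 ± 0.12) and Ahcy (0.25 ± 0.091) rose, and Sfxn1 (0.0080 ± 0.074) and Mat2a (-0.21 ± 0.14) did not pass. At pH 7.4, 26 of the 39 were higher with IL-2 than without it and 11 were lower, where 39.3% of all genes were higher and 41.1% lower. At pH 6.6, 14 were higher with IL-2 and 1 was lower, where 13.2% of all genes were higher and 10.6% lower.

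**Figure D4:**
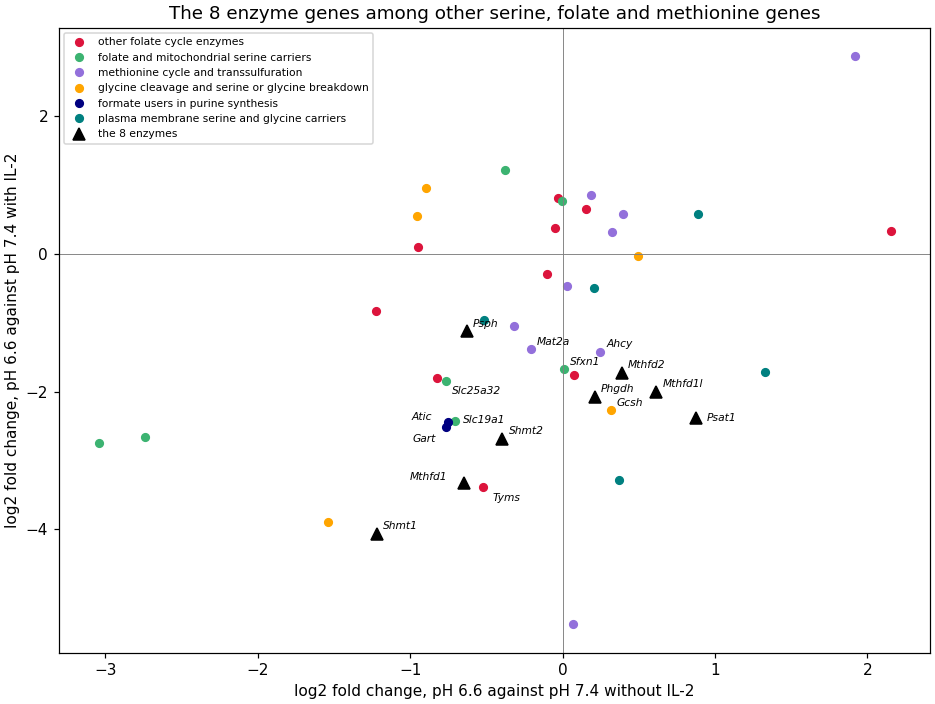
Log2 fold change from pH 7.4 to pH 6.6 without IL-2 (horizontal) and with IL-2 (vertical) for the 8 enzymes (black triangles) and all but 1 of the 39 further genes (coloured by list), with names for the 8 and for the genes of these lists given in the text. All 8 triangles lie below 0 on the vertical axis and on both sides of 0 on the horizontal one, and the cultures with and without IL-2 are separate libraries.

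A list of 6 genes, made of regulators named for this pathway and the enzyme gene Asns, was followed in the same comparisons. Of these 6, 2 rose, 3 fell and 1 did not pass in acid with IL-2, and 3 rose, 1 fell and 2 did not pass in acid without it. Of all genes, 35.4% rose and 40.9% fell in acid with IL-2, and 31.6% rose and 35.4% fell without it. Transcripts of Atf4, the factor that drives Phgdh, Psat1, Shmt2 and Mthfd2 when amino acids are short, did not pass in acid with IL-2 (log2 0.079 ± 0.075, adjusted p = 0.338) and rose in acid without it (0.89 ± 0.075, adjusted p = 6.03e-12). Asns, a further ATF4 target, fell with IL-2 (-2.40 ± 0.13) and did not pass without it (-0.27 ± 0.13). Myc fell with IL-2 (-1.55 ± 0.11, adjusted p = 6.35e-14) and rose without it (0.69 ± 0.12, adjusted p = 6.38e-06). Transcript levels do not report the amount of ATF4 or c-Myc protein. Genes of S phase were read beside the enzymes, since folate carbons go into DNA. Of 15 such genes, 15 fell in acid with IL-2 (median log2 fold change -2.30), 1 fell at pH 7 with IL-2 (median -0.16) and 12 rose in acid without IL-2 (median 0.82). The shares of all genes were 40.9% lower, 9.83% lower and 31.6% higher in the same order. Their summed level was 4975 to 5752 CPM at pH 7.4 with IL-2, 998 to 1460 CPM at pH 6.6 with IL-2 and 512 to 543 CPM at pH 7.4 without IL-2, and whether the share of cells in S phase has a part in the enzyme levels was not tested.

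Over the 35 libraries, the genes whose log2 CPM was most like that of a member are given as a description, since all libraries share the same 7 groups. Mthfd1 was closest to Gart, the purine enzyme that uses formyl groups (Pearson r = 0.996), followed by Tfdp1 (0.993) and Nolc1 (0.991). Shmt2 was closest to Noc2l (0.994), Atad3a (0.990) and Bri3bp (0.990), and Phgdh to Ruvbl2 (0.993), Nhp2 (0.990) and Cfl1 (0.990). For Psat1 these were Eif5a (0.992), Cyp51 (0.991) and Eef1e1 (0.988), and for Shmt1 Bysl (0.982), Ppa1 (0.980) and Hnrnpab (0.977). Mthfd1l was nearest to the mitochondrial chaperone Hspa9 (0.990), the glycyl-tRNA synthetase Gars (0.986) and Pus1 (0.985), and Mthfd2 to Eef1e1 (0.986), Hspa9 (0.983) and Gars (0.982). Psph stood apart, with Taf11 (0.973), Aven (0.972) and Alg5 (0.966). Between the members themselves r was 0.637 to 0.836 for the pairs that hold Psph and 0.913 to 0.986 for all others.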

How the data were processed

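RNA was sequenced from 35 libraries of OT-I CTLs. According to the study's methods, polyadenylated RNA was made into stranded libraries and sequenced as single reads. The authors deposited a table of raw read counts per gene for each library, without normalization. The submitters' processing notes name cutadapt 1.8, STAR 2.5.2b, HTSeq 0.6.1 and the build GRCm38, and the read length and the strand setting are not given in the sources used here. Reads aligned to several places (32.8% to 48.3% of the entries of a table), reads outside genes (median 7.42%) and ambiguous reads (median 0.922%) stood in lines that name no gene and were left out. Reads outside genes differed between groups, at 3.91% to 5.18% at pH 7.4 with IL-2 and 7.335% to 8.83% at pH 6.6 with IL-2. Whether this has a part in the enzyme levels was not tested. Symbols were matched for 48349 of 48709 identifiers.

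In R 4.3.3, edgeR 4.0.16 kept 13819 genes (filterByExpr, minimum count 10), scaled them by TMM and fitted a robust quasi-likelihood model over the 35 libraries, in which group and replicate number (the block) were the terms. The common dispersion corresponded to a biological coefficient of variation of 0.120. Adjusted p-values are Benjamini-Hochberg values over all genes tested, with a threshold of 0.05. The series text states that CTLs from 5 biological replicates were used under each condition, so a number marks a shared replicate. Between groups, residuals about the group mean correlated above 0.1 in 96 of 105 same-numbered pairs (median r 0.247). The median for different numbers was -0.064. Residuals of a group of 5 cancel out, so that negative value follows from the positive one and is no separate evidence. Within groups, 70 pairs of libraries were compared and none was a duplicate (chi-square divided by its degrees of freedom, 6.65 or more). Log2 ratios between paired enzymes used an exact two-sided permutation test over libraries.

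The 8 genes, the other lists and the tests were chosen with earlier results of these data known. Named genes are the 8 members, 8 chosen pathway genes, further list genes called in acid, with IL-2 or without it, that moved by 2 or more on the log2 scale and had a mean log2 CPM of 3 or more, and the 3 most similar genes per member. Of the chosen pathway genes, 1 is counted in its list but is not reported here. Alternatives were RLE normalization, DESeq2 1.42.0, looser and stricter filters (1 count in any library, 10 in every library), no block, only the groups compared, leaving out each replicate number, and a log2 fold change of at least 1. The model was also run on simulated data, in which few genes were changed, in a single group, and replicates had no effect. Most genes were called in acid with IL-2, so that run cannot vouch for the calls given here. Depth limits Shmt1 without IL-2 most, at 6 to 43 reads per library.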

Additional observations from a re-analysis of the deposited data

Results flagged for a closer look

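The effect of pH 6.6 against pH 7.4 differed between cultures with and without IL-2 for every member, by edgeR's interaction test. Of all genes, 67.0% passed that test, 34.3% with a positive and 32.8% with a negative difference. The log2 differences were -2.29 for Phgdh, -3.26 for Psat1, -0.49 for Psph, -2.85 for Shmt1, -2.29 for Shmt2, -2.69 for Mthfd1, -2.62 for Mthfd1l and -2.12 for Mthfd2. At pH 7 the same test, passed by 4.79% of all genes, gave -0.54 for Psat1, -0.39 for Psph, -0.54 for Shmt2 and -0.35 for Mthfd1l. With a replicate number left out, 0 to 4 members passed it.

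A single library stood apart from its group. Mthfd1l in replicate 5 at pH 6.6 without IL-2 was at 41.0 CPM, where the other 4 libraries lay between 36.1 and 37.4 CPM. The comparison was made for 56 sets of 5 libraries and this was the 1 set in which the gap to the nearest library exceeded Dixon's critical value of 0.71 of the range, while chance alone gives about 1 in 20.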

How the results depend on the processing

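Of 1565 log2 fold changes of members recomputed under other settings, 1505 kept their direction and their side of the threshold, 41 lost the call, 9 gained it and 10 changed sign. The changed signs were all of uncalled values near 0: between pH 7 and pH 7.4 without IL-2, Shmt2 (0.019, 0.0036 and 0.00056 without replicates 1, 3 and 5, in a range of -0.049 to 0.019), Mthfd1 (-0.060 to 0.047, positive without 5), Mthfd1l (-0.051 to 0.0043, positive without 5) and Mthfd2 (-0.052 to 0.054, negative without 3). The others were Shmt2 at pH 6.6 with IL-2 against pH 7.4 without it (-0.031 to 0.22, negative without 4) and, against the start, Psph at pH 7.4 with IL-2 (-0.0064 to 0.12, negative without 4) and Psat1 at pH 7 with IL-2 (-0.0099 to 0.049, negative without 4 and, at -0.00014, without 5). With a log2 fold change of at least 1 required, 0 members were called at pH 7 with IL-2, beside 203 of the 13819 genes tested. In acid without IL-2 the counts were 1 member and 2829 genes, and from pH 7 to pH 6.6 without IL-2 0 and 2711. For IL-2 at pH 6.6 they were 2 and 516, and in the pH 7 interaction 0 and 120. Acid with IL-2 against neutral without it gave 3 members and 2664 genes. Against the start, pH 7.4 with IL-2 gave 2 and 2091, and pH 7 with IL-2 gave 2 and 1833. The pH 7 interaction called 1 member with the looser filter, 1 without the replicate block and 0 to 4 with a replicate number left out. The block changed no other count of members by over 1.5 times, though Shmt1 and Mthfd1 lost their calls at pH 7 with IL-2 without it. The ratio of Shmt2 to Shmt1 in acid without IL-2 ranged from 0.50 to 0.81 with a replicate left out. When same-numbered libraries were paired and signs flipped (the replicate block for the ratios), the smallest p that 5 pairs allow is 0.0625, so the 12 ratios could not pass and kept their values: for Shmt2 to Shmt1 1.43, 0.66, -4.33 and -3.56, for Mthfd2 to Mthfd1 1.67, 1.02, -1.996 and -1.35, and for Mthfd1l to Mthfd1 1.38, 1.25, -1.44 and -1.31. The stricter filter dropped Shmt1, which gave no value there. Over all genes, the count at pH 7 with IL-2 was 2623, against 1660 without the block, 4388 with only the groups compared, and 1374 and 1283 without replicates 2 and 3, and a log2 fold change of at least 1 left 203. Without IL-2 at pH 7 it was 232, against 56 without the block, 942 with only the groups compared and 35 to 332 with a replicate left out, and 62 at the fold requirement. IL-2 at pH 6.6 gave 3278, against 5369 with only the groups compared, 2119 without replicate 4 and 516 at the fold requirement, and the pH 7 interaction gave 662, against 326, 177, 1632, 1016 and 120 with the looser filter, no block, only the groups compared, DESeq2 and the fold requirement, and 98 to 711 with a replicate left out. The fold requirement left 4753 of 10539 in acid with IL-2, 2829 of 9258 without it and 5657 of 11111 for IL-2 at pH 7.4. In the remaining comparisons it left 1833 to 4920 of 7502 to 10667. RLE normalization moved the median over all genes by under 0.1 on the log2 scale. The other lists were recounted with RLE and DESeq2 after the data were seen. No called list count moved by more than 1 gene in either direction. The cause of these changes was not tested.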
